A study of Mus musculus with 468 samples.

Results

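Cela1 encodes an elastase that the acinar cells of the pancreas make and store, and pancreas lies close to some fat depots. Of all libraries of mouse adipose tissue in the series, the 10 with the highest Cela1 level (2.14%) were selected on that level alone and described beside the 50% of libraries below the median of Cela1. Only 3 of the 10, from mice DO528, DO331 and DO095, carried other acinar enzymes such as Cpa1, Cel and Cpb1 in quantity, and the other 7 carried Cela1 with next to none of these. The libraries came from Diversity Outbred mice, an outbred stock in which several inbred founder strains are mixed, with 1 library per mouse. The diet of every mouse was the HFHS diet, rich in fat and sugar, with 45 percent of fat, and per the methods of the study the tissue was the gonadal fat pad. The labels gave neither sex nor age nor batch, so all libraries formed 1 group and the spread between libraries combined animal and assay.

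The exocrine pancreas is built of acinar cells, which secrete digestive enzymes as inactive precursors into a system of ducts lined by epithelium. The islets of Langerhans are scattered among them and release hormones into the blood. Acinar cells devote most of their messenger RNA to a small set of enzymes, among them proteases such as elastases, chymotrypsins and carboxypeptidases, lipases, amylases and ribonuclease, under the transcription factors Ptf1a, Rbpjl, Bhlha15, Nr5a2 and Gata4. Fat cells are known for leptin and adiponectin and not for digestive enzymes.

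Cela1 (ENSMUSG00000023031) lies on GRCm38 at chr15:100674421-100687921 on the minus strand, overlaps no other annotated gene, and has Galnt6 and Bin2 as its nearest coding neighbours, 3892 and 4868 bases away. Cpa1 (ENSMUSG00000054446), a carboxypeptidase of the acinar cell and the second marker used here, lies at chr6:30639218-30645363 on the plus strand. The promoters of both, and of the chymotrypsin-like protease gene Ctrl, are shown because Cela1 parted from Cpa1 in these data while Ctrl kept the steadiest ratio to Cpa1. They are RefSeq promoters on GRCm38.p6, windows of 300 bases that end shortly after the start, at chr15:100687871-100688170 (minus strand), chr6:30638968-30639267 (plus strand) and chr8:105933813-105934112 (minus strand). Capitals mark an E box (CANNTG) or a TGGGAA box on either strand, the kinds of letters that the acinar factor PTF1 is known to read together.
Cela1: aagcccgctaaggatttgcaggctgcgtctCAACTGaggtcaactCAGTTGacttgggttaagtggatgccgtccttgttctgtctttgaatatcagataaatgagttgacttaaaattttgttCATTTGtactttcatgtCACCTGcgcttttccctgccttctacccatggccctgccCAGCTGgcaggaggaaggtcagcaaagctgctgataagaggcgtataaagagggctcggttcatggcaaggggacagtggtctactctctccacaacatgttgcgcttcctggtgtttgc
Cpa1: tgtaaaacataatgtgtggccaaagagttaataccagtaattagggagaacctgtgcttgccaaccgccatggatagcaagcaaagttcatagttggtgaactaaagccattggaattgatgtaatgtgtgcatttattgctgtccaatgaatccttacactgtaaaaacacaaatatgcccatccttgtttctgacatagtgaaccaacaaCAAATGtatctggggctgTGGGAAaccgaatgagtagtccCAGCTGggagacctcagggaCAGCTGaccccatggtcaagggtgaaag
Ctrl: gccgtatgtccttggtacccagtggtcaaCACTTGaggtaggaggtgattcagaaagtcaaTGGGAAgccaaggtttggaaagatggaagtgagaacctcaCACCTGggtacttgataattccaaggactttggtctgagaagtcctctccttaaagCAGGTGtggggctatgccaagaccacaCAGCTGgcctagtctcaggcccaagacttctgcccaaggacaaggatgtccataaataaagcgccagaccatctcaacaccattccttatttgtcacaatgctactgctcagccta
The Cela1 window held 5 E boxes and 0 TGGGAA boxes, the Cpa1 window 3 and 1, and the Ctrl window 4 and 1. The window of Cel, a lipase, held 5 and 1, that of the kallikrein Klk1 3 and 1, that of Cpb1, another carboxypeptidase, 2 and 0, and that of the ribonuclease Rnase1 0 and 1. An E box stood in 72.3% of 32851 promoters of the same length, a TGGGAA box in 25.6% and both in 18.96%. These matches are letters in a window and no measure of binding.

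Levels are given in counts per 1000000 (CPM), the expected count of a gene scaled so that every library has the same sum. Total expected counts were 65.8 M to 92.5 M in the 10 libraries and 35.3 M to 137.8 M in all. The labelled tissue was borne out by adiponectin: Adipoq lay between 845 and 2132 CPM in the 10 libraries, against a median of 2176 CPM in the libraries below the median of Cela1. Cela1 itself reached 120.7 CPM in DO528, 63.6 in DO556, 59.5 in DO331, 53.97 in DO192, 49.99 in DO095, 45.4 in DO544, 40.3 in DO412, 37.96 in DO530, 36.1 in DO393 and 35.2 in DO213. The next library, DO375, had 34.4 CPM, so the values that chose the 10 continued without a gap into the rest. The libraries below the median ran from 0.0811 to 10.1 CPM with a median of 4.95. The libraries between them and the 10, 47.9% of the series and called intermediate here, had a median of 17.9 CPM.

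Cpa1 divided the 10. It stood at 117.9 CPM in DO528 (9501 counts), 68.9 in DO331 (5427 counts) and 31.3 in DO095 (2450 counts). In the other 7 libraries it lay between 0.0277 and 0.121 CPM, that is 2 to 10 counts. The highest of these, 10 counts in DO213, has a Wilson 95% interval of 0.0659 to 0.223 CPM, which covers counting error only. No intermediate library exceeded 0.999 CPM, and the highest library below the median of Cela1 was DO032 with 4.29 CPM, so these 3 libraries stood apart from all others in the series. Placing the 10 in 3 and 7 by a Cpa1 level of 30 CPM was done after their values were seen, and values are given for each without a test.

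**Figure D1:**
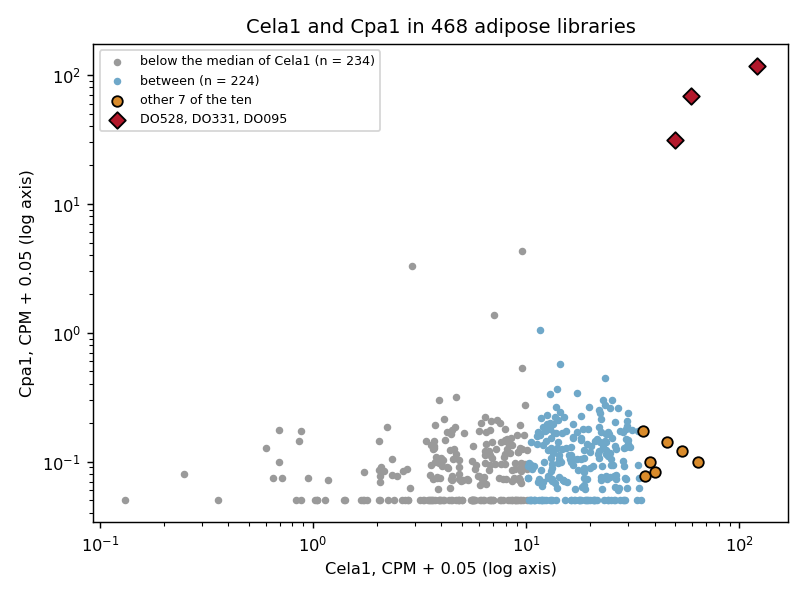
Cela1 (x axis) against Cpa1 (y axis) in CPM + 0.05, both on log axes, 1 point per library, with the libraries below the median of Cela1 in grey, the intermediate libraries in blue, and the 10 in orange or red. The 3 red diamonds, DO528, DO331 and DO095, lie above 30 CPM of Cpa1, and the 7 orange points lie at or below 0.121 CPM.

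Other acinar enzymes entered together with Cpa1. Of 31 acinar enzyme genes on the list used, 7 were among the genes of the table, and the trypsins, the pancreatic amylases, colipase and pancreatic lipase were not analysed here. Amy1, the amylase of salivary gland and liver, which stood on the list of mammary and salivary epithelium, lay between 49.96 and 175.3 CPM in the 10 against a median of 172.96 CPM below the median of Cela1, a difference of -1.01 on the log2 scale. Cel, the bile salt dependent lipase, was at 136.8, 62.3 and 38.3 CPM in DO528, DO331 and DO095 and at 0 to 0.182 CPM in the other 7. Cpb1 was at 85.5, 39.95 and 24.04 CPM and otherwise at 0 to 0.187. The 2 sets of libraries did not overlap for either gene. In bulk tissue, fewer cells of a type and less RNA per cell cannot be told apart.

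Ctrl was at 42.5, 24.4 and 10.6 CPM in the same order and at 0.0728 to 0.664 CPM in the other 7. Rnase1, the pancreatic ribonuclease, was at 38.8, 23.5 and 13.6 CPM against 0.0247 to 0.425. Klk1, tissue kallikrein, which salivary gland and kidney also make, was at 12.6, 3.42 and 2.82 CPM against 0.0216 to 1.14. DO528 was the highest and DO095 the lowest of the 3 for each of these enzymes.

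These 3 libraries stood above all others of the series for 6 of the 7 enzymes: Cpa1, Cpb1, Cel, Ctrl, Rnase1 and Klk1. Of all 23180 genes, 7 had these 3 libraries above all others, and Cpa1 itself was used to pick the 3. Among the enzymes Cela1 is the exception, because DO556 and DO192 exceeded DO095. Relative to Cpa1 within a library, Ctrl varied least over the 3, from 0.338 to 0.361. The highest ratio to Cpa1 was 1.32 times the lowest for Cpb1, 1.32 for Rnase1, 1.35 for Cel, 1.85 for Cela1 and 2.16 for Klk1. Cela1 was thus among the less steady, with 1.02 counts per count of Cpa1 in DO528, 0.864 in DO331 and 1.60 in DO095. Outside the 3 libraries, however, Cela1 had a median of 10.05 CPM, and Ctrl, the highest of the other 6 enzymes there, 0.205 CPM. The ratio of Cela1 may therefore hold a part present without Cpa1, which was not tested, and Cela1 chose these libraries. Klk1 belongs to a large family of near-identical genes, among which expectation maximization may divide reads unevenly.

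**Figure D2:**
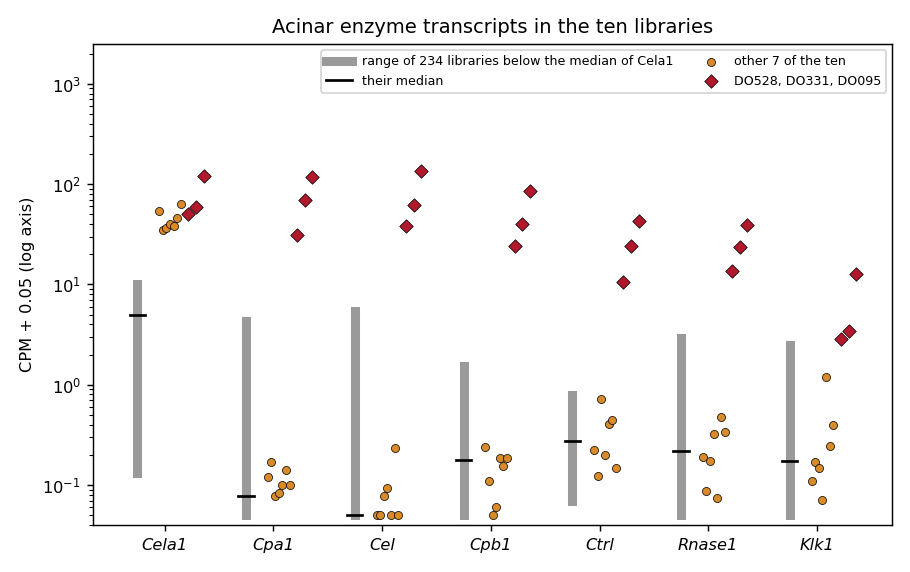
Levels of 7 acinar enzymes in CPM + 0.05 on a log axis, with the range (grey) and median (black) of the libraries below the median of Cela1, the 7 libraries in orange and DO528, DO331 and DO095 as red diamonds. For every enzyme shown but Cela1 the diamonds lie above the orange points and the grey range, and for Cela1 the orange points lie among the diamonds.

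Summed over these 6 enzymes, DO528 had 434.1 CPM, DO331 had 222.4 CPM and DO095 had 120.7 CPM, the 3 highest sums of the series. The fourth, DO193, had 10.2 CPM, of which Cel gave 9.27 and Cpa1 0. The other 7 of the 10 had 0.412 to 1.70 CPM, and the best placed of them, DO530, ranked 38 in that sum. The libraries with the next highest Cpa1 differed in their company: DO032 (4.29 CPM) and DO069 (3.23 CPM) had 460.8 and 635.9 CPM of Inha, an inhibin subunit of the ovary, with Cel at 0 in both. DO060 (1.32 CPM), also below the median of Cela1, had Cpb1 at 1.496, Cel at 2.27 and Ctrl at 0.601 CPM, with Inha at 0.655 and Cela1 at 6.9997 CPM.

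Secretory proteins of the acinar cell followed only in part. Of 20 listed genes, 5 were in the table. Zg16, a zymogen granule protein that goblet cells of the gut also make, was at 21.9, 17.8 and 10.01 CPM in DO528, DO331 and DO095 and at 0.0216 to 0.211 in the other 7, but an intermediate library had 164.9 CPM. Erp27, an endoplasmic reticulum protein rich in pancreas, was at 0.831, 0.393 and 0.307 CPM against 0.0216 to 0.280. It reached 0.308 CPM below the median of Cela1 and 0.318 in the intermediate libraries, both above DO095. Cuzd1 was at 6.85, 2.12 and 1.89 CPM, yet DO556 had 17.7 CPM and an intermediate library had 762 CPM. Reg2 lay between 0.574 and 1.20 CPM in all 10, against a median of 0.805 CPM below the median of Cela1.

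The acinar transcription factors were low in all 10. Rbpjl, the acinar partner of Ptf1a, was at 1.17 CPM in DO528 and 1.41 in DO331, in both above all libraries outside the 3, whose highest value was 1.04, but at 0.205 in DO095. Bhlha15 (Mist1), which matures the secretory apparatus, was at 0.893, 0.393 and 0.499 CPM in the 3 and at 0.198 to 0.594 in the other 7. Nr5a2 lay between 1.09 and 3.45 CPM and Gata4 between 0.0234 and 0.939 CPM in the 10, with the 3 inside the range of the other 7 for Nr5a2.

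Endocrine transcripts could be described only in part. Of 23 islet hormone and granule genes, 13 were in the table, and insulin, glucagon and somatostatin were not among them and were not analysed here. No islet gene had DO528, DO331 and DO095 above all other libraries. Chga, a granule protein of endocrine cells, was at 0.856, 0.533 and 0.205 CPM in the 3 and reached 1.58 in DO556. Ghrl (ghrelin) was at 0.124, 0.228 and 0.0949 CPM against a median of 0.178 CPM below the median of Cela1. Pax6, an islet transcription factor, did not exceed 0.137 CPM in any of the 10. Other granule genes were higher in some of the 3. Ptprn2 was at 0.459 CPM in DO528 and 0.546 in DO331 but at 0.0256 in DO095, against 0 to 0.0248 in the other 7. Scg5 was at 3.46 CPM in DO095 but at 0.248 in DO528 and 0.241 in DO331. Pcsk2 was at 0.732 CPM in DO528 but at 0.114 in DO331 and 0.0895 in DO095.

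Over all genes, the median of the 10 was higher by at least 1 on the log2 scale for 6.9% of 23180 genes and lower for 2.33%, and the median of all genes differed by 0.09 (differences of log2(CPM + 0.05)). Because Y chromosome counts, that is any count of Ddx3y, Eif2s3y, Kdm5d or Uty, moved with Cela1, differences are also given among the libraries that had them. Of the acinar enzymes, 1 of 7 was higher, Cela1, which the rule fixed. The medians of the other 6 differed by 0.06 to 0.88, since 3 libraries of 10 do not move a median far. The share was 1 of 5 for acinar secretory genes (Cuzd1, 3.05, which turned to -0.81 among libraries with Y chromosome counts), 1 of 5 for acinar factors (Foxp2, 1.03, which turned to -0.68), 2 of 13 for islet granule genes, with 3 lower, 0 of 3 for islet factors and 0 of 13 for duct genes, with 1 lower. Among libraries with Y chromosome counts 5 of the 13 duct genes were lower, against 877 of all 23180 genes. Among the 5 were Cldn7 (-3.58), Epcam (-3.49) and Cldn4 (-2.10), and the median of the list turned from 0.24 to -0.95. By library these genes were uneven. Epcam was at 17.4 CPM in DO556 and 12.6 in DO095, and at 0.0818 to 0.703 CPM in the rest of the 10. DO528 (0.695) and DO331 (0.127) were among the low ones. These are descriptions of libraries chosen by a measured value, and no test was made of them.

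The islet granule genes that were higher in the 10 are genes that other cells make too. Ttr (transthyretin) and Slc2a2 (the glucose carrier GLUT2) are made in liver as well as islets. Ttr was at 35.01, 19.3, 17.9, 14.2 and 13.8 CPM in DO556, DO213, DO528, DO544 and DO530 and at or below 0.736 CPM in the other 5. The same 5 libraries had the highest Alb (albumin), from 201.8 to 536.5 CPM, against 0.908 to 26.9 CPM in the other 5. Of 12 liver genes, 10 were higher in the 10 (median difference 2.11 on the log2 scale) and Cyp2e1 was lower. The shares over all genes were 6.9% and 2.33%. Slc2a2 was at 1.64 to 2.91 CPM in these 5, but also at 2.00 CPM in DO412 and 2.51 CPM in DO393, where Alb was at 5.10 and 5.58 CPM. The part of liver transcripts in these values was not tested.

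Immune cells of fat were described by a list of their own. Of 11 macrophage genes, 7 were higher in the 10 (median difference 1.17 on the log2 scale), and 6 among libraries with Y chromosome counts. Over all genes, 6.9% were higher, and 1149 of 23180 genes among libraries with Y chromosome counts. Adgre1 (F4/80) was highest in DO528, at 324.7 CPM, and lowest in DO331, at 36.2 CPM.

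Y chromosome counts moved with Cela1 in this series. They were present in 9 of the 10 libraries, all but DO331, in 27.4% of those below the median and in 75% of the intermediate ones. Cela1 had a median of 15.9 CPM in the libraries with Y chromosome counts, 51.5% of the series, and 6.07 CPM in those without. Among those without, DO331 had 59.5 CPM and the second highest 33.2 CPM. Among libraries with Y chromosome counts, 9 of the 10 against 64 below the median, 4.96% of genes were higher and 3.78% lower. Scaling the totals by TMM instead gave 5.82% higher and 3.25% lower over all libraries.

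Few genes shared their highest libraries with Cela1. No other gene had more than 5 of the 10 among its own 10 highest libraries, 4 genes had 5 and 27 had 4. The 4 genes with 5 were Zfyve28, Triap1, Gpr180 and Scfd2. Of the other acinar enzymes, Ctrl and Klk1 had 4, and Cpa1, Cpb1, Cel and Rnase1 had 3. Zfyve28, an endosomal regulator of growth factor receptors, was at 20.3 to 32.01 CPM in DO528 and the other 7 but at 9.29 in DO095 and 5.05 in DO331, against a median of 4.20 below the median of Cela1. Lep (leptin), which fat cells release in proportion to their fat store, was at 3493 to 5701 CPM in the same 8 libraries, 2020 in DO095 and 821 in DO331, against a median of 425.8. Among the 10, the 2 libraries lowest in Lep and in Zfyve28 were thus both libraries with acinar enzymes.

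At least 5 of the 10 exceeded every library below the median for 0.6% of genes. Pea15a, a regulator of signalling and cell death, was at 485.4 to 642.6 CPM in the same 8 libraries, all above the highest library below the median (432.6), and at 188.2 in DO095 and 184.6 in DO331. The differences of the medians were 3.14 for Lep, 2.59 for Zfyve28, 1.60 for Pea15a, 0.71 for Triap1, 0.58 for Gpr180 and 0.48 for Scfd2 on the log2 scale. Among libraries with Y chromosome counts they were 2.08, 1.69, 1.06, 0.60, 0.47 and 0.43. The dynein light chain genes Dynlt1a and Dynlt1f also had 4 of the 10 among their highest, but they are near-identical copies whose counts are uncertain.

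Among genes with a median of at least 10 CPM below the median of Cela1, the largest decreases were in Xist, Ucp1, Fabp3, Hoxc10 and Cyp2e1. Ucp1, the uncoupling protein of brown fat, was at 2.09 to 34.2 CPM in 9 libraries and at 1134 CPM in DO331. Its difference of -6.29 on the log2 scale turned to 0.92 among libraries with Y chromosome counts, and those of Fabp3 and Hoxc10 shrank from -5.03 and -4.54 to -0.65 and -0.26. Cyp2e1, a cytochrome of liver and fat, was the exception: it was at 59.05 to 636.4 CPM in 9 libraries and at 1249 CPM in DO331, against a median of 2030 CPM, a difference of -4.18 over all and -4.59 with Y chromosome counts. Cfd (adipsin), a fat cell protease, was likewise lower, at 144.3 to 1799 CPM against a median of 2687 CPM.

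**Figure D3:**
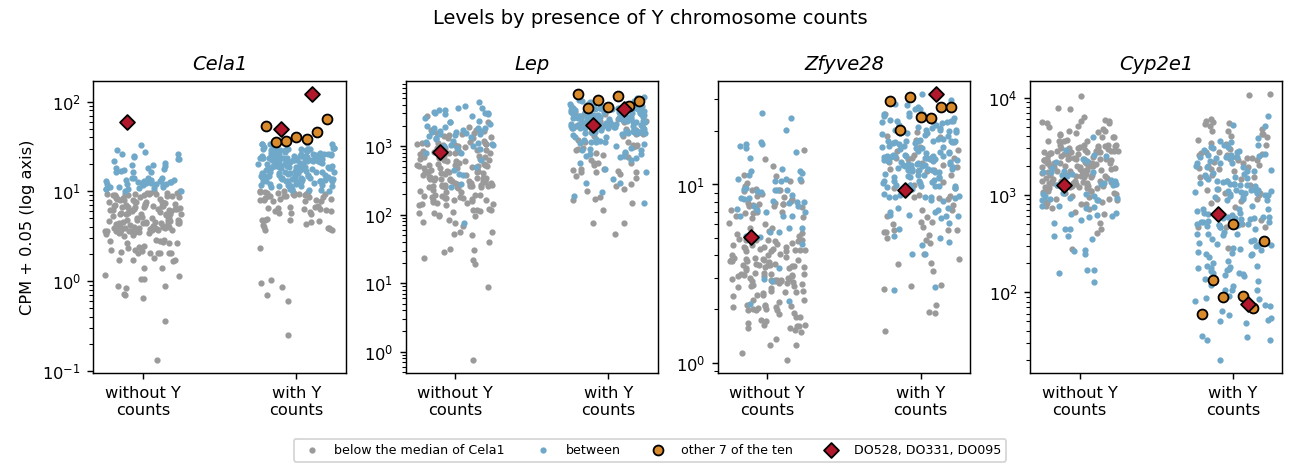
Cela1, Lep, Zfyve28 and Cyp2e1 in CPM + 0.05 on log axes, 1 point per library, split by presence of Y chromosome counts and coloured by Cela1 as in the plot of Cela1 against Cpa1. DO331 is the only one of the 10 without Y chromosome counts, and the 7 orange points lie at 3599 CPM of Lep or more.

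The intermediate libraries, which the contrast left out, were used to test which genes follow Cela1 below these extremes. They too were bounded by their Cela1 level, and the 3 libraries with acinar enzymes in quantity lay outside them. Cpa1 reached at most 0.999 CPM there, with 0 counts in 21.4% of the libraries, and Cel had 0 counts in 43.75%. The fit can therefore say little about acinar enzymes, and no conclusion on pancreas is drawn from their slopes. An edgeR quasi-likelihood fit over 22372 genes, with presence of Y chromosome counts as covariate, gave a log2 slope per SD of the rank normal score of Cela1. With Benjamini-Hochberg adjustment over all genes, 12.6% of genes rose with Cela1 (2824) and 17% fell (3813). Cpa1 had a slope of -0.07 ± 0.13 (SE, adjusted p = 0.730), Cel -0.01 ± 0.22 (adjusted p = 0.970) and Ctrl -0.05 ± 0.07 (adjusted p = 0.633). Rnase1 and Klk1 did not pass the threshold either, and Cpb1, at a median of 0.0709 CPM, had a slope of -0.26 ± 0.11 (adjusted p = 0.0496), which no longer passed in 5 of the 10 alternative fits that kept the gene.

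Correlations across the intermediate libraries were computed as well. Spearman's rho with Cela1 was 0.0585 for Cpa1 and 0.0963 for Cel, and Pearson's r on log2(CPM + 0.05) was 0.0306 and 0.0623 (permutation adjusted p over 45 pancreas genes of 0.506 and 0.394 for rho and 0.727 and 0.592 for r). Without the 2 libraries farthest from the median of Cela1, r was 0.0505 and 0.0554. In the intermediate libraries with Y chromosome counts (75%) rho was 0.0386 and 0.123, and in the 56 without it was 0.132 and 0.0569.

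Of 45 pancreas genes tested in the intermediate libraries, 3 had a positive and 5 a negative rho at an adjusted p under 0.05 by permutation. Slc4a4, a bicarbonate carrier of duct and other cells, had a rho of -0.289 and an r of -0.308 (permutation adjusted p = 0.00045 for both). Its rho was -0.160 in the libraries with Y chromosome counts and -0.416 in those without (permutation adjusted p = 0.2499 and 0.0347), so the call was lost with Y chromosome counts. In the fit, 3 pancreas genes rose (Zg16, Ghrl and Chga) and 7 fell (Cpb1, Cuzd1, Foxp2, Scg5, Isl1, Slc4a4 and Cldn3), of 45 tested, against the shares of 12.6% and 17% over all genes. Zg16 and Cuzd1 rested on few high libraries: their slopes of 1.19 and -0.52 became 0.35 and -0.32 with counts capped at the 99th percentile of each gene (adjusted p = 0.271 and 0.254).

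**Figure D4:**
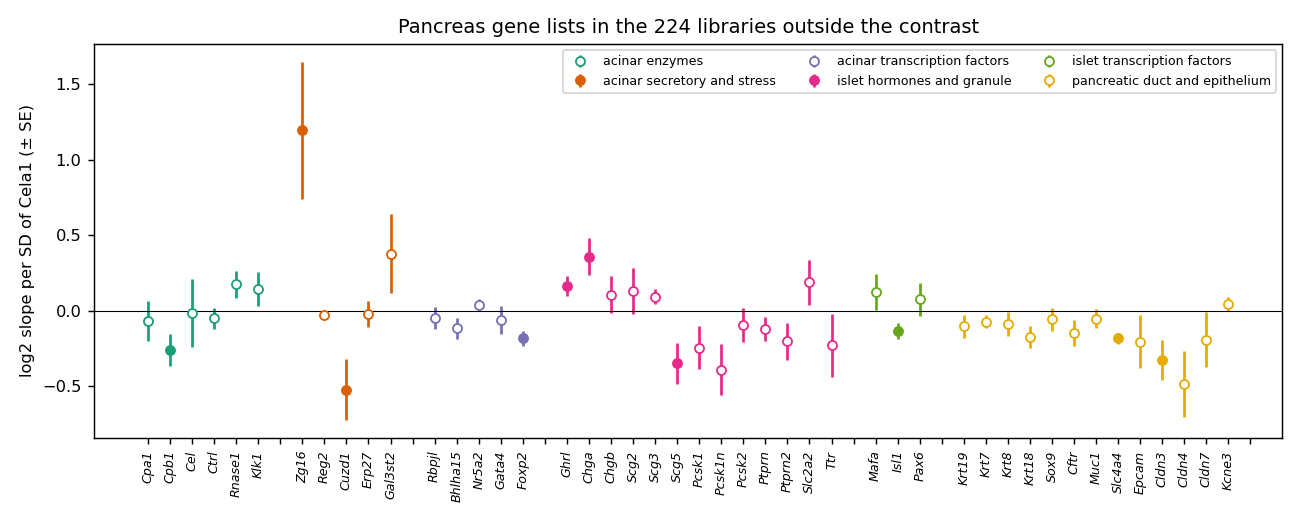
Log2 slope per SD of Cela1 (± SE) for 45 other pancreas list genes in the intermediate libraries, coloured by list, with filled symbols for adjusted p under 0.05 and open symbols otherwise. Among the acinar enzymes, Cpb1 lies below 0, and Cpa1, Cel, Ctrl, Rnase1 and Klk1 are open symbols.

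The genes that followed Cela1 most closely in the intermediate libraries were not pancreas genes. Vim (vimentin), an intermediate filament of mesenchymal cells, rose by 0.16 ± 0.02 (SE, adjusted p = 1.5e-09) and the membrane progesterone receptor gene Paqr7 by 0.20 ± 0.03 (adjusted p = 1.99e-09). Nek6, P3h1, Pigs, Ltbr and Rab32 rose by 0.08 to 0.16, and the medians of all 7 were higher in the 10 than below the median of Cela1. Tgm4, a prostate transglutaminase, was also among the 8 with the lowest p, but its slope of 0.74 became 0.07 with capped counts (adjusted p = 0.531). Lep rose by 0.29 ± 0.05 and Zfyve28 by 0.24 ± 0.04, and Cyp2e1 fell by 0.66 ± 0.11 and Cfd by 0.47 ± 0.08, all with adjusted p under 0.05. Of 11 macrophage genes, 8 rose and 0 fell, against 12.6% and 17% of all genes. Of the neighbours of Cela1 on chromosome 15, Galnt6 rose by 0.23 ± 0.07 (adjusted p = 0.0058) and Bin2 had a slope of -0.03 ± 0.06 (adjusted p = 0.717).

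Of the 8 genes that fell with the lowest p, Tfcp2, a transcription factor at a median of 13.97 CPM, fell by 0.09 ± 0.01 (SE, adjusted p = 1.92e-15) and kept that slope with capped counts. Rnase10, Defb25, Cstdc2, Teddm1a, Teddm1b and Teddm2, known from epididymis, and the muscle myosin Myh4 had medians of at most 0.998 CPM and slopes of -3.02 to -1.36. With capped counts the slopes of Defb25, Cstdc2 and Teddm1b were -0.38, -0.22 and -0.08 (adjusted p = 0.0752, 0.142 and 0.550), and those of the other 4 kept an adjusted p under 0.05 at -1.65 to -0.27. By limma on rank normal scores, however, only Teddm2 of these 4 passed (-0.23, adjusted p = 0.00381), with Myh4, Rnase10 and Teddm1a at an adjusted p of 0.956, 0.817 and 0.842. In the libraries with odd library numbers Myh4, Rnase10 and Teddm2 did not pass either (adjusted p = 0.685, 0.454 and 0.964), and Teddm1a was not kept by the filter.

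The numbers in the labels were compared as well. Mouse numbers averaged 379.4 ± 166.8 (SD, n = 10) in the 10 libraries and 252.1 ± 144.7 (SD) in those below the median of Cela1, a difference of 127.3 (two-sided permutation test, p = 0.00667, adjusted p = 0.0133 over 2 comparisons). Among libraries with Y chromosome counts the difference was 105.7 (permutation p = 0.0390, adjusted p = 0.0780), and that of the medians was 127.5 (permutation p = 0.0194, adjusted p = 0.0389). Library numbers averaged 442.6 ± 148.6 and 464.8 ± 134.6 (permutation p = 0.619, adjusted p = 0.619). The 3 libraries with acinar enzymes had neither neighbouring mouse numbers nor neighbouring library numbers.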

How the data were processed

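Polyadenylated RNA of gonadal adipose tissue from Diversity Outbred mice was sequenced, with 1 library per mouse and 1 group. The authors estimated abundance by expectation maximization (EMASE, run by GBRS) on a transcriptome that joins the founder strains, and deposited expected counts per gene, of which 66.8% were whole within 1e-06. Each gene listed there reached 1 count in 0.5 of the libraries or more. Versions of these tools are not given in the sources. The submitters' processing notes name GRCm38 and DESeq2. A second deposited table holds log2-scale VST values, from 5.31 to 25.3, made by the variance stabilization of DESeq2 and used as an alternative only, and gene annotations came with both. Each of the 23180 identifiers matched GENCODE M21.

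CPM used the unrounded expected counts and their sum over genes. Genes were placed beside 18 marker lists by symbol, and 46 of 104 pancreas genes were found. Some genes are not reported here. The members and lists were chosen with earlier results of these data known. The contrast of the 10 libraries with those below the median was described by medians, ranges and ranks, with a difference of at least 1 on the log2(CPM + 0.05) scale called. Named genes were all pancreas list genes found, the 15 others with the most of the 10 libraries among their own 10 highest (4 or 5), the 5 largest decreases at 10 CPM or more, and the 8 lowest p in each direction of the fit.

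The fit used edgeR 4.0.16 (TMM, robust quasi-likelihood) on counts rounded to whole numbers, genes with at least 10 counts in at least 10 libraries, and Cela1 left out. Presence of Y chromosome counts stood in for sex, a covariate of the study that the labels do not give. The 241 libraries with and 227 without them equal the numbers of males and females that the paper gives for adipose tissue. On simulated data, 90 of 100 genes with a slope of 0.5 and 64 of 100 with 0.25 were recovered, and 10 of the others were called. These counts were drawn independently for each gene from a fitted negative binomial model. They hold no correlation between genes and no departure from that model, so they do not give the false calls of the real fit. Correlations and label numbers used 100000 permutations, two-sided, whose smallest p is 1e-05. Wilson intervals at 95% hold counting error alone, because PCR copies are not separate molecules. DESeq2 1.42.0 and limma 3.58.1 served as alternatives. Expectation maximization makes counts of near-identical genes uncertain.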

Additional observations from a re-analysis of the deposited data

Results flagged for a closer look

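In the intermediate libraries, the slope with Cela1 differed between libraries with and without Y chromosome counts for 72 of 22372 genes by an edgeR interaction term (adjusted p under 0.05, 1696 genes at an unadjusted p under 0.05), among them 5 genes named above. The epididymal genes had lower slopes in libraries with Y chromosome counts: Cstdc2 by -2.095, Defb25 by -3.21, Rnase10 by -2.795, Teddm1b by -1.85 and Teddm2 by -1.54. Their slopes without Y chromosome counts were -0.19 for Rnase10, 0.03 for Cstdc2, -0.04 for Teddm1b and -0.05 for Teddm2, against -2.96, -2.01, -1.83 and -1.57 with them. In the fit without this term, Defb25, Cstdc2 and Teddm1b no longer passed with capped counts, while Rnase10 and Teddm2 did. The interaction was not fitted with capped counts.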

How the results depend on the processing

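No paired analysis was possible because all libraries formed 1 group and the labels carry no replicate numbers. Ranking on Cpa1 instead of Cela1 kept 3 of the 10 libraries. The shares of genes with a higher or lower median were 4.34% and 0.984% with a pseudocount of 0.5 CPM and 3.94% and 1.26% against all other libraries. Among libraries with Y chromosome counts alone (added after seeing the data) 3.78% of genes were lower and 1.26% had at least 5 of the 10 above every library below the median. The highest summed acinar level was 554.7 CPM, 281.85 CPM without DO528 and 434.1 CPM without Cela1. The fit gave 1601 rising and 2145 falling genes in libraries with even library numbers and 785 and 927 with odd ones, although more libraries had odd numbers than even ones. Among the 45 pancreas genes, positive correlations numbered 1 without Y chromosome counts and 0 with higher library numbers, and negative ones 0 with and 1 without Y chromosome counts and 2 with lower and 0 with higher library numbers. The difference in mouse number was 105.7 with Y chromosome counts by the mean and 127.5 by the median (permutation adjusted p = 0.0780 and 0.0389, added after seeing the data).

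Among named genes that passed in the main or the alternative fit, slopes changed sign in these cases. With limma on log2 CPM, Zg16 had -0.0358 and Cstdc2 0.0263. With limma on rank normal scores, Zg16 had -0.0463, Myh4 0.00687, Rnase10 0.0262, Defb25 0.0255 and Cstdc2 0.0928. Without the covariate, Foxp2 had 0.00583. With even library numbers, Tgm4 had -0.0657, and with odd ones Cuzd1 had 0.0496, Rnase10 0.279, Teddm2 0.00802, Teddm1b 0.449 and Cstdc2 0.119. The cause was not tested. Of all alternative slopes of named genes, 88.8% kept their side of the threshold without a sign change of the kind listed. Sign was not compared where neither fit passed. A further 7.37% no longer passed, 1.69% newly passed and 2.15% were the sign changes listed. Genes near 0 CPM, such as Cel (0 counts in 43.8% of the intermediate libraries), limit what the fit can show.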
